A study of Mus musculus with 16 samples.

Results

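The liver transcript response at day 2 after partial hepatectomy was examined in mice in which MET and EGFR were blocked together. In partial hepatectomy a large share of the liver is removed and the remnant grows back. The response is the day 2 value minus the day 0 value of the arm labelled MET_KO_canertinib. It rests on 2 of the 16 arrays of the series, and it was set against the same difference in the other 3 arms, which brings the arrays used to 8. Each arm and day has 1 array, so no value has a replicate check. The labels do not state whether the RNA on an array came from a single animal or several.

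All 16 arrays hold total RNA of liver from mice of the strain background 129SV/C57BL/6 with the genotype label Metff/ff:ERCre+/+, a Met gene that a tamoxifen-inducible Cre recombinase can cut. In MET_KO and MET_KO_canertinib exon 16 of Met had been deleted through the tamoxifen system, and MET_FLOX and MET_FLOX_canertinib kept the floxed gene. Both canertinib arms received canertinib, which inhibits EGFR and its relatives, in the diet with an intended dose of 80 mg/kg. The drug is thus not specific to EGFR. The blockade is described as systemic, so it is not limited to hepatocytes. The sources used here do not give the promoter that drives the Cre, the age or sex of the mice, or whether MET_FLOX mice received tamoxifen.

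After partial hepatectomy quiescent hepatocytes enter the cell cycle, replicate their DNA and divide. Hepatocyte growth factor, which binds MET, and the ligands of EGFR are the principal direct mitogens of hepatocytes, and each pathway can drive this cycle to a large extent when the other is off. The same period brings an acute phase response, in which hepatocytes secrete defence proteins, and a fall in several specialised liver functions such as bile acid synthesis.

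Signals are MAS5 values, a summary of the brightness of the probes of 1 transcript, scaled by the submitters to a common level in every array. A response is on the log2(signal + 16) scale, on which 1 is a doubling of signal plus 16. Where 4 values or 4 pairs of values stand together with no arm named, they follow the order MET_FLOX, MET_KO, MET_FLOX_canertinib, MET_KO_canertinib, and a pair is day 0 and day 2. A gene "rose" or "fell" where it changed by 1 or more between the 2 arrays of an arm. The median signal of an array was 156.4 to 188.7 on the 4 arrays without canertinib and 244 to 251.4 on the 4 with it. Day 0 and day 2 of each arm lay in the same of these ranges, so a response does not cross them. A comparison of arms without and with the drug does cross them, so drug and array range cannot be told apart there. Day 14 arrays without the drug had medians of 245.8 in MET_FLOX and 246.3 in MET_KO. Gapdh 3' to 5' ratios, a sign of RNA length, were 0.765 to 1.11 on the other 7 arrays and 1.35 on the day 2 array of MET_KO_canertinib. Actin 3' to 5' ratios set that array apart less, at 1.94 beside 1.30 to 1.88 on the other 7. The part of these differences in the results was not tested. Hepatocyte markers were the brightest of the 9 cell type marker lists on all 8 arrays, with a mean log2 level of 14.04 to 15.43. In whole liver, fewer cells of a type and less RNA per cell cannot be told apart.

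Met, the receptor of hepatocyte growth factor, had signals of 1577 and 1418, 2066 and 1618, 1118 and 1165, and 1422 and 982.2. The knockout arms were not separated from the flox arms by this probe set. Its place relative to the deleted exon is unknown here, so it checks nothing. Egfr had signals of 3308 and 5516, 11223 and 7636, 6964 and 4368, and 2764 and 6343 in these arms. Its response in MET_KO_canertinib, 1.19, was the highest of the 4 arms, and its day 0 signal was the lowest of the 8.

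In MET_KO_canertinib 645 of 13575 genes (4.75%) rose and 644 (4.74%) fell between days 0 and 2. The shares were 5.07% and 7.48% in MET_FLOX, 7.34% and 7.45% in MET_KO, and 6.73% and 5.96% in MET_FLOX_canertinib. On these values MET_KO_canertinib thus had fewer changes of this size than each other arm in both directions. For rises the margin to MET_FLOX was narrow, 645 against 688. The counts of the other arms were not made under other scalings. The SD of the responses over genes was 0.717, 0.798, 0.749 and 0.645. The median response of all genes was 0.02 in both canertinib arms, -0.15 in MET_FLOX and -0.10 in MET_KO.

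The response of MET_KO_canertinib also went less with those of the other arms than these went with each other. Across the 13575 genes Pearson's r between the responses of MET_FLOX and MET_KO was 0.374, and it was 0.215 between MET_FLOX and MET_FLOX_canertinib and 0.277 between MET_KO and MET_FLOX_canertinib. Between MET_KO_canertinib and MET_FLOX, MET_KO and MET_FLOX_canertinib it was 0.067, 0.099 and 0.121. By ranks the gap was smaller. Spearman's rho was 0.301, 0.169 and 0.219 for the pairs of other arms in the same order, and 0.046, 0.086 and 0.148 with MET_KO_canertinib. The value for the 2 canertinib arms, 0.148, thus lay near the 0.169 between MET_FLOX and MET_FLOX_canertinib. Among the 7264 genes whose brightest array exceeded 4 times its median, where the signal is far from background, r was 0.381 to 0.535 among the other 3 arms and 0.154 to 0.192 with MET_KO_canertinib. Outside the S phase and mitosis lists, over 13512 genes, it was 0.176 to 0.328 and 0.053 to 0.109. These are correlations across genes, which are not independent replicates, and no 2 arms share an array.

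A core of 143 genes (1.05%) rose in each of the other 3 arms. Of these, 28 (19.6%) also rose in MET_KO_canertinib, beside 4.75% of all genes, and 115 did not. The median response of the 143 genes was 1.96, 2.53 and 1.95 in those arms and 0.43 in MET_KO_canertinib. In MET_KO_canertinib 133 of them had a response below the lowest of the other arms, 35 were below 0 and 6 had fallen. Below the lowest of the other 3 lay 22.4% of all genes. The 143 genes were chosen by their rise in the other arms, so part of this difference comes with the choice.

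The same count was made with each arm in turn as the one set aside. Of the genes that rose in the remaining 3 arms, 28 of 47 (59.6%) also rose in MET_FLOX, 28 of 35 (80.0%) in MET_KO and 28 of 44 (63.6%) in MET_FLOX_canertinib, against 28 of 143 in MET_KO_canertinib. For falls the shares lay closer together, at 20 of 38 (52.6%), 20 of 36 (55.6%) and 20 of 42 (47.6%), against 20 of 48 (41.7%). With day 7 as the baseline, a setting chosen after seeing the data, 104 of 113 shared rises and 52 of 54 shared falls were missing in MET_KO_canertinib. The shares of the other arms were not counted on that baseline, so whether those for falls lie close together there is not known. The threshold passed between Haus7 and Dph2, whose lowest rises in the other arms were 1.0019 and 1.0022, and Ddias and Iqgap3, at 0.999 and 0.977.

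**Figure D1:**
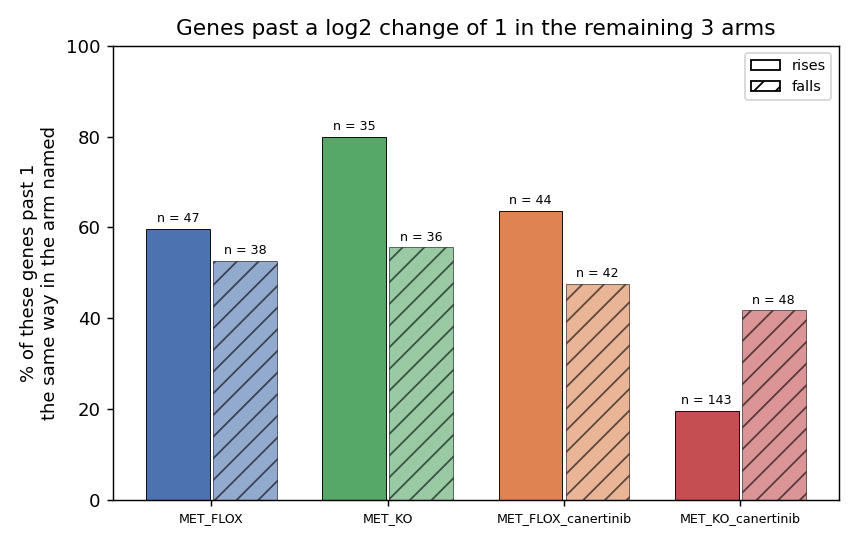
Share of the genes past a log2 change of 1 in the remaining 3 arms that also passed 1 the same way in the arm named (y axis, percent; plain bars rises, hatched bars falls; n is the number of genes past 1 in the remaining 3 arms). The plain bar of MET_KO_canertinib stands at 19.6%, and those of the other arms at 59.6% to 80.0%.

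Single genes were tested with limma, MET_KO_canertinib against the mean of the other 3 responses, with the spread taken from those 3 responses. No gene passed an adjusted p of 0.05 (Benjamini-Hochberg over 13575 genes), 724 had an unadjusted p below 0.05 against 679 expected with no effect, and the smallest adjusted p was 0.226, for Mcm6. The median SE of a difference was 0.527. The values of single genes that follow are thus descriptions of these arrays.

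Promoters of the shared risers are described first, since these genes moved together in 3 arms. RefSeq promoter windows of 300 bases around the gene start (build GRCm38.p6) matched 10923 of the 13575 genes. Both strands were searched for the E2F motif (TTCCCGC or TTGGCGC), bound by the factors that open S phase, for the CHR element (TTTGAA), typical of genes of mitosis, for the CCAAT box (CCAAT), and for the core of the metal response element (TGCGCNC or TGCACNC). Mcm6 is a subunit of the helicase that unwinds DNA and lost nearly all of its rise, Mki67 is a proliferation marker that lost all of it, and Cdk1, the kinase that starts mitosis, kept part of it. Capitals mark E2F motifs in Mcm6, at chr1:128359656-128359955, and E2F, CHR and CCAAT motifs in Mki67, at chr7:135716330-135716629, and Cdk1, at chr10:69352863-69353162, all on the minus strand and written 5' to 3' along the gene.
Mcm6: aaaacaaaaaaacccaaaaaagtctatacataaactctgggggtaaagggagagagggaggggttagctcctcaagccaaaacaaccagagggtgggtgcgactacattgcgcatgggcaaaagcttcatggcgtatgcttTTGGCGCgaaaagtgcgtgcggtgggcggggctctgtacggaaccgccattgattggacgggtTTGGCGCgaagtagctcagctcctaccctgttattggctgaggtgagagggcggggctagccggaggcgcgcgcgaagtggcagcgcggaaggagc
Mki67: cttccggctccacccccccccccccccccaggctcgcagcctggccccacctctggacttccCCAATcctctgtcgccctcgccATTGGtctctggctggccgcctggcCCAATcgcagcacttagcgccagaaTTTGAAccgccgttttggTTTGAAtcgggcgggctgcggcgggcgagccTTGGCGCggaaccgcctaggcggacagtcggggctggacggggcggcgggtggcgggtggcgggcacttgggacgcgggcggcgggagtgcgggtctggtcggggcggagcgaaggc
Cdk1: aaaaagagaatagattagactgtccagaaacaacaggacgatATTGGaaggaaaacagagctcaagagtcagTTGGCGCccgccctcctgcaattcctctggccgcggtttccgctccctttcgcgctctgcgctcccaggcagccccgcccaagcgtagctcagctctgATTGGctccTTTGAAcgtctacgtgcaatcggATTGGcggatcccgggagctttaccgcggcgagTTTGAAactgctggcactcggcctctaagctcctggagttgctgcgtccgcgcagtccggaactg

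An E2F motif stood in 35 of the 120 promoters matched for the 143 genes (29.2%), beside 11.1% of all promoters. It was in 32 of 95 promoters (33.7%) of genes whose rise was missing in MET_KO_canertinib and in 3 of 25 (12%) of genes whose rise was kept. The CHR element was in 35.8% and 44.0% of these groups and in 12.5% of all promoters, and the CCAAT box in 63.2% and 60.0%, beside 38.1%. Cell cycle motifs thus marked both groups, and the E2F share of the kept group lay near that of all genes. With 25 promoters 1 gene is 4 percentage points, and a match is a run of letters, not a site shown to be bound.

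Genes of DNA replication hardly moved in MET_KO_canertinib. Of the 29 tested genes of the S phase list, 23, 26 and 19 rose in the other arms and 2 in MET_KO_canertinib, which were Mcm2 (1.20) and Tk1 (1.28). The medians were 1.95, 2.36, 1.13 and 0.25, and 25 of 29 responses were below those of all other arms, as were 22.4% of all genes. Mcm6 had signals of 22.4 and 3304, 56.0 and 5272, 32.4 and 1966, and 205.0 and 270.6. Its day 2 signal was therefore low in MET_KO_canertinib while its day 0 signal was the highest of the 4. The difference from the mean of the other responses was -5.62 (SE 0.61, limma adjusted p = 0.226). Rrm2, which makes deoxynucleotides, had signals of 633.2 and 6390, 636.2 and 10002, 961.4 and 5902, and 824.5 and 1306, and rose in the other arms from a like day 0 level. Uhrf1, which copies DNA methylation to new strands, responded by 4.07, 5.17, 2.4 and 0.68, and Gins2, a replication fork subunit, by 2.72, 4.00, 1.13 and 0.07. For Mcm10 and Orc1 the brightest probe set rose in none of the 4 arms.

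Genes of mitosis also responded less in MET_KO_canertinib. Of 34 tested, 27, 28 and 27 rose in the other arms and 9 in MET_KO_canertinib, with medians of 2.45, 3.39, 2.17 and 0.52. In MET_KO_canertinib 30 were below the range of the other arms, as were 22.4% of all genes. Birc5, which serves chromosome segregation and cell survival, had signals of 48.1 and 2302, 19.4 and 2665, 44.6 and 1570, and 48.0 and 357.2. It rose in all 4 arms, but its day 2 signal was lowest in MET_KO_canertinib. Cdk1 had day 0 and day 2 signals of 293.5 and 3234, 51.8 and 4354, 102.2 and 2432, and 89.1 and 550.1. Ube2c, an enzyme of mitotic exit, responded by 3.31, 5.63, 5.30 and 2.36, and Shcbp1, a protein of the dividing cell's midbody, by 3.70, 4.88, 4.44 and 2.50. Kif22, a chromosome motor, gave 2.26 in MET_KO_canertinib, within the range of the other arms, 2.18 to 4.11. Knstrn, a spindle protein, gave 1.83 there, Plk1, a mitotic kinase, 1.66, and Ccnb2, a mitotic cyclin, 1.65, each below the other arms. By their smallest rise over the 4 arms, these 8 genes ranked highest among genes bright enough to be named.

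Other genes of division did not rise by 1 in MET_KO_canertinib. Mki67 had signals of 190.5 and 1690, 59.6 and 2839, 64.9 and 1496, and 170.5 and 101.4. Top2a, which untangles DNA, had 217.8 and 2242, 98.5 and 3783, 209.7 and 2225, and 266.0 and 277.7. In both genes the day 2 array of MET_KO_canertinib lay far below the other day 2 arrays and near the day 0 arrays. Kif20a, a motor of cytokinesis, responded by 4.22, 3.34, 2.48 and 0.04, and Nuf2, of the kinetochore, by 4.71, 5.86, 4.31 and 0.94. Ncapg2, a condensin subunit, gave -0.82 in MET_KO_canertinib after 3.84, 4.23 and 4.34 in the others. Gtse1, a microtubule protein of late cell cycle, gave -0.78, Wee1, which holds back mitotic entry, -0.62, and Spdl1, of the kinetochore, -1.19. The last 4 had their highest day 0 signals of the 4 arms in MET_KO_canertinib.

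Genes of the start of the cycle also responded less in MET_KO_canertinib. Ccnd1, the cyclin induced by growth factors, had signals of 1802 and 6256, 1152 and 8099, 1249 and 5404, and 1205 and 2124, a response of 0.81 in MET_KO_canertinib. Of the 17 genes of G1 regulators and E2F factors, 6, 8 and 8 rose in the other arms and 1 in MET_KO_canertinib. That gene was Myc, a growth factor target, with signals of 244.3 and 251.3, 188.9 and 271.1, 55.9 and 178.7, and 57.1 and 312.0. It rose in both canertinib arms, from low day 0 signals, and in neither arm without the drug. E2f1, which drives E2F targets, responded by 1.66 and 2.25 without canertinib and by 0.04 and 0.03 with it, so it was low in both canertinib arms. E2f8, which restrains such targets, gave 1.5, 2.59, 3.34 and 0.29.

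**Figure D2:**
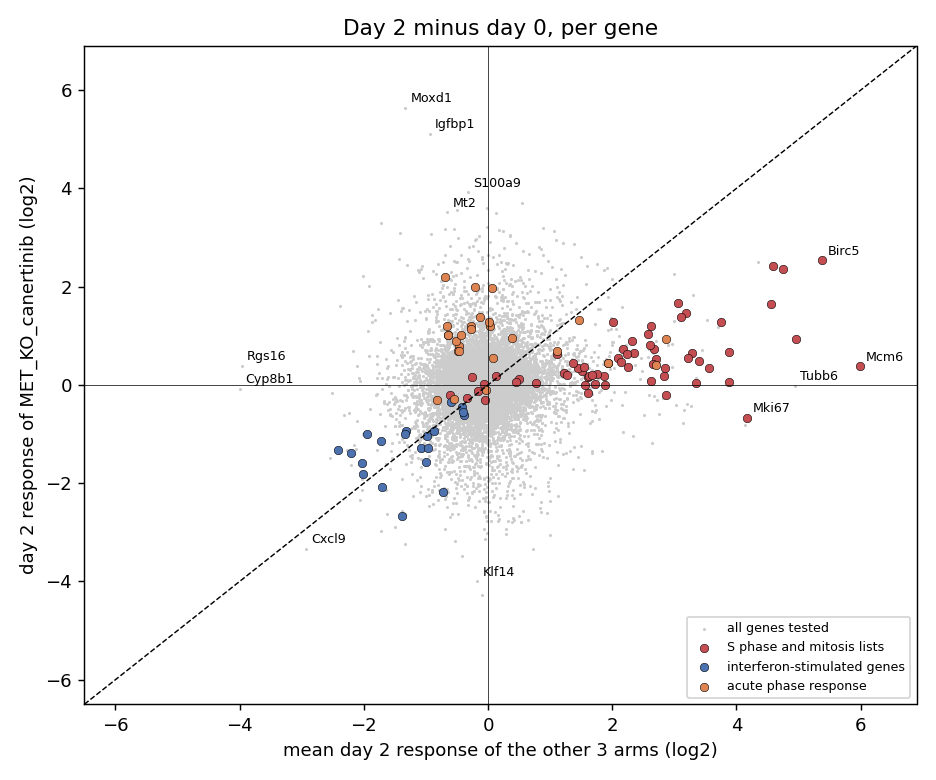
Day 2 minus day 0 per gene in MET_KO_canertinib (y axis, log2) against the mean of the other 3 arms (x axis, log2); grey points are the 13575 genes, coloured points 3 gene lists, and the dashed line marks equal responses. S phase and mitosis genes lie to the right near y = 0, interferon-stimulated genes lie along the dashed line, and most acute phase genes lie above it.

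Of the 143 genes, 100 stood outside the S phase and mitosis lists, and 18 of these rose in MET_KO_canertinib. Their medians were 1.79, 2.10, 1.90 and 0.40, close to the pattern of the cell cycle lists, although several are cell cycle genes that the lists did not hold. Tubb6, a beta tubulin, had the widest gap. Its signals were 40.1 and 1554, 57.9 and 2088, 21.6 and 1349, and 24.0 and 23.5. The gene lay far under the array medians at day 0 in all 4 arms and stayed there in MET_KO_canertinib alone (difference -4.96, SE 0.80, limma adjusted p = 0.37). Dnajc9, a histone chaperone, responded by 3.27, 2.65, 3.56 and -0.52. Neurl1b, an E3 ubiquitin ligase, gave 2.50, 3.91, 3.63 and 0.15. Lsm2, a core protein of spliceosomal RNA particles, gave 1.01, 2.16, 1.87 and -1.35.

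Rises outside the cell cycle were kept for some matrix and contractile genes. Sparc, a matrix glycoprotein, had signals of 1330 and 2921, 1206 and 2549, 167.3 and 759.9, and 361.9 and 1282. Its response in MET_KO_canertinib, 1.78, lay within the range of the other arms, 1.07 to 2.08. Tagln, a smooth muscle protein, gave 1.55 beside 1.47 to 2.22, and Myh10, a nonmuscle myosin, 2.38 beside 1.54 to 2.32. These 3 genes were chosen after their values were seen. The 19 markers of stellate cells and matrix had medians of 0.34, 0.32, 0.18 and 0.32. Of these, 6, 5, 4 and 5 rose, beside 5.07%, 7.34%, 6.73% and 4.75% of all genes.

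Fewer genes of the cytoskeleton list rose in MET_KO_canertinib. Of 23 genes 10, 13 and 7 rose in the other arms and 1, S100a6 (1.19), in MET_KO_canertinib, where 13 were below the range of the others and the median was 0.26 after 0.88, 1.16 and 0.42. Stmn1, which destabilises microtubules, responded by 2.27, 3.09, 2.43 and 0.72, Tubb5, a tubulin, by 1.38, 1.73, 1.56 and 0.58, and Vim, an intermediate filament protein, by 1.58, 1.10, 1.13 and 0.41. Krt8, the keratin of hepatocytes, gave 1.57 and 1.59 without canertinib and 0.45 and 0.33 with it. Splicing genes changed less, with medians of 0.50, 0.44, 0.27 and 0.00, and 12 of 17 below the range. In the proteasome list 12 of 24 were below the range with a median of -0.13, and no member rose or fell in any arm. Over all genes 22.4% were below the range, the share to set beside the counts of these lists.

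**Figure D3:**
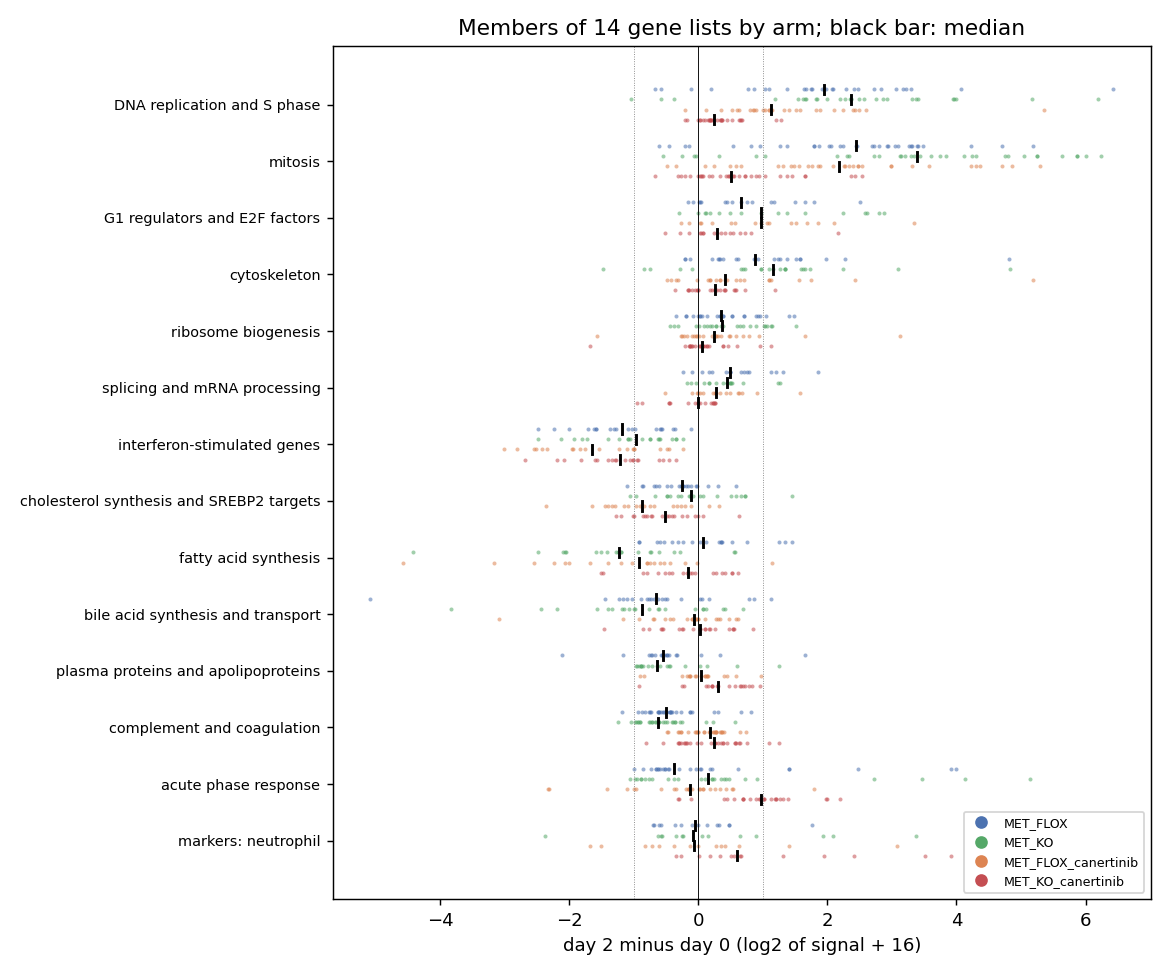
Day 2 minus day 0 (x axis, log2 of signal + 16) of each member of 14 gene lists in the 4 arms; each point is a gene, each black bar a median, and dotted lines mark changes of 1 in either direction. Medians of S phase and mitosis genes in MET_KO_canertinib are 0.25 and 0.52, those of interferon-stimulated genes lie between -1.64 and -0.96 in all arms, and that of acute phase genes is 0.98.

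Falls shared by the other arms were fewer than shared rises. In each of the other 3 arms 48 genes (0.354%) fell, and 20 of these (41.7%) fell in MET_KO_canertinib too, beside 4.74% of all genes. Of the 28 that did not, 14 had a response above 0 and 5 had risen. The median of all 48 was -0.58 in MET_KO_canertinib and -1.65, -1.81 and -1.68 in the others. Among the 27 whose brightest array exceeded 4 times its median, 15 (55.6%) fell in MET_KO_canertinib.

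Interferon-stimulated genes, which carry antiviral defence, made up 8 of the 20 falls found in all 4 arms. Of 20 tested, 12, 10, 15 and 14 fell, and none rose in any arm. The medians were -1.18, -0.96, -1.64 and -1.21, with 4 genes below and 6 above the range of the other arms. Over all genes 22.4% were below and 28.8% above it. Ifit1, an antiviral RNA-binding protein, had signals of 707.8 and 165.4, 968.0 and 208.7, 2358 and 400.9, and 3109 and 1179. Its level was highest in MET_KO_canertinib on both days, and its response was -2.0, -2.13, -2.51 and -1.39. Cxcl9, a chemokine induced by interferon gamma, stood outside this list. It had signals of 420.2 and 37.7, 590.5 and 25.1, 142.1 and 26.8, and 1289 and 113.5, a response of -3.33 in MET_KO_canertinib. Gbp6 and Igtp, GTPases of the same defence, gave -1.81 and -1.13 there. Also outside the list, Mup10, a secreted urinary protein, gave -1.64, Arrdc3, an arrestin-like protein, -1.32, and Agps, of ether lipid synthesis, -1.30, all with falls in every arm.

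Among genes bright enough to be named, the falls with the widest gap to MET_KO_canertinib belonged to Rgs16 and to a gene of bile acid synthesis. Cyp8b1, the enzyme that makes cholic acid, had signals of 5347 and 142.4, 12105 and 835.8, 7572 and 872.8, and 3735 and 3545. The day 2 signal stayed at its day 0 level in MET_KO_canertinib and dropped to 872.8 or less in the other arms (difference 3.93, SE 0.68, limma adjusted p = 0.375). It was the 1 gene of its list that fell in each of the other 3 arms. In the list of 22 genes 6, 10, 2 and 1 fell, beside 7.48%, 7.45%, 5.96% and 4.74% of all genes. The medians were -0.65, -0.88, -0.06 and 0.03, and the split ran between arms without and with canertinib, which also differ in array range. Slc10a1, the bile acid importer, gave -1.10, -1.39, -0.70 and -0.76, and Cyp7a1, the rate-limiting enzyme, -0.73, 0.41, 0.28 and -0.25.

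Rgs16, which dampens G protein signalling, had signals of 348.5 and 27.3, 965.0 and 28.4, 1634 and 63.9, and 215.2 and 287.4. The day 2 signal was 63.9 or less in the other arms, under their array medians, while in MET_KO_canertinib it exceeded its day 0 signal, the lowest of the 4. H2-Ab1, of antigen presentation, had 2146 and 437.4, 2308 and 454.4, 865.2 and 268.8, and 1003 and 1062. Ces1e, a carboxylesterase, responded by -1.28, -2.57, -1.50 and 0.14, Abca2, a lipid transporter, by -1.71, -1.36, -1.87 and 0.02, and Car3, a carbonic anhydrase, by -2.45, -2.77, -1.72 and -0.62. Leap2, a secreted hepatocyte peptide, gave -1.98, -1.89, -1.17 and -0.32, and Pklr, a glycolytic enzyme, -1.64, -1.42, -1.24 and -0.44.

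**Figure D4:**
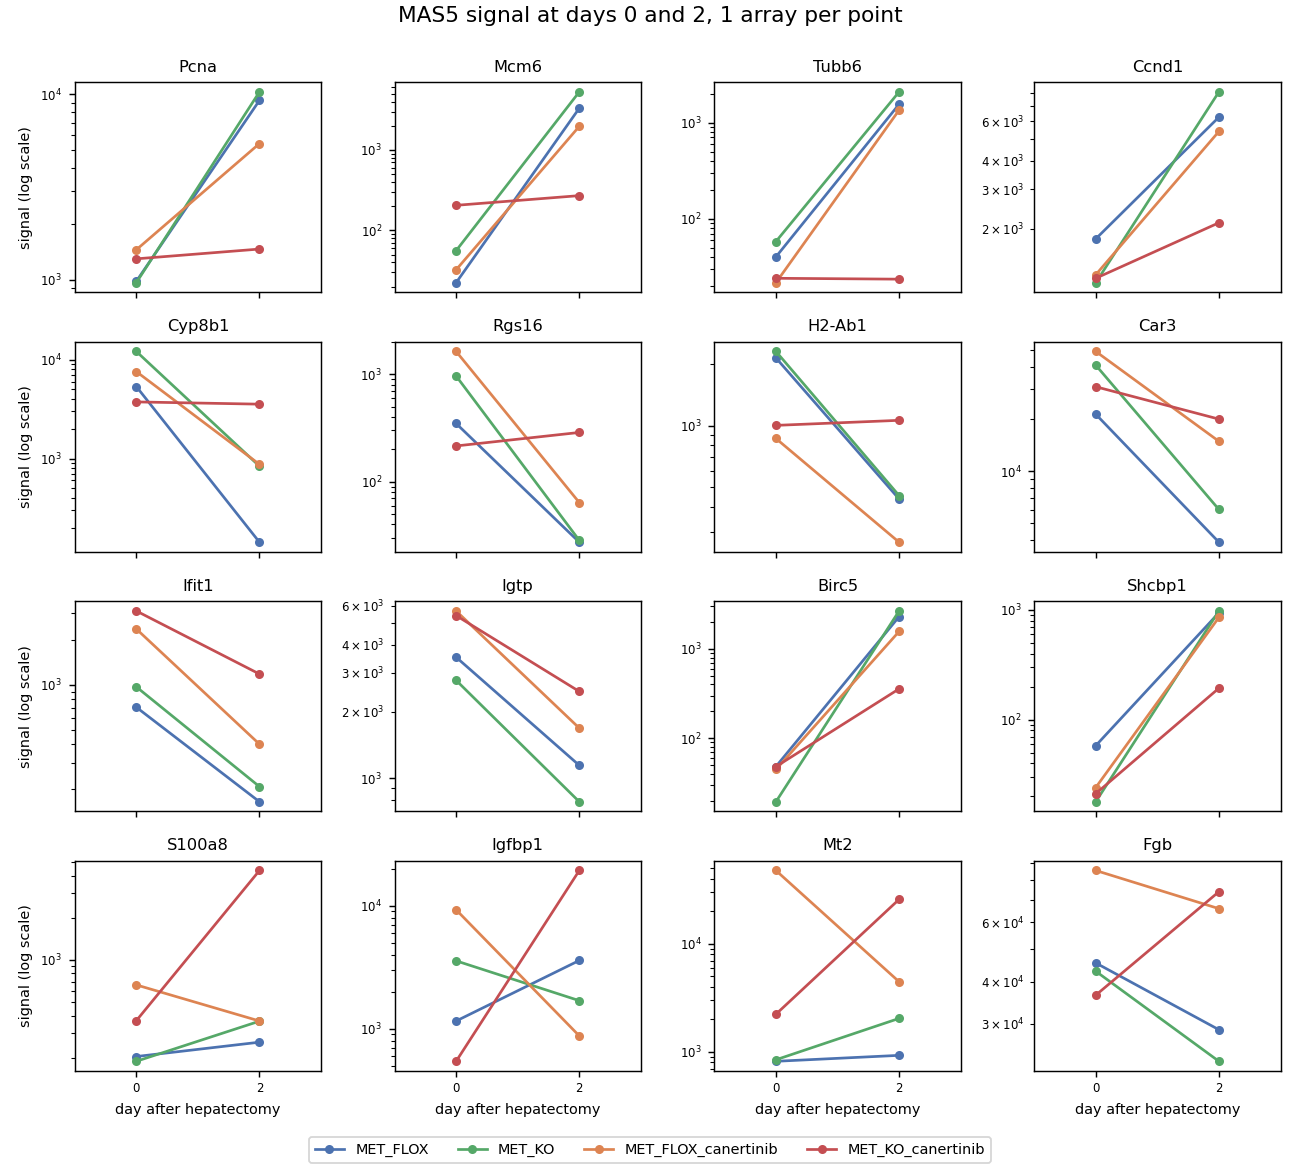
MAS5 signal (y axis, log scale) at days 0 and 2 after hepatectomy (x axis) for 16 genes, 1 array per point and 1 line per arm. Mcm6, Tubb6 and Pcna climb in 3 arms and stay flat in MET_KO_canertinib, Cyp8b1 and Rgs16 drop in 3 arms and not there, Ifit1 and Igtp drop in all, and S100a8, Igfbp1, Mt2 and Fgb climb in MET_KO_canertinib.

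Genes of fatty acid synthesis fell mainly in MET_KO and MET_FLOX_canertinib. Of 20 genes 0, 12, 10 and 2 fell, with medians of 0.07, -1.22, -0.91 and -0.16. Fasn, the fatty acid synthase, had signals of 7752 and 8426, 22377 and 5205, 8340 and 2600, and 5766 and 4920. MET_KO thus started highest and MET_KO_canertinib lowest. The 2 that fell in MET_KO_canertinib were Acss2 (-1.50) and Acacb (-1.48), which make acetyl-CoA and malonyl-CoA. Cholesterol synthesis genes had medians of -0.25 and -0.10 without canertinib and -0.87 and -0.52 with it. In the circadian clock list 0, 2, 2 and 0 of 16 genes rose and 1, 1, 4 and 2 fell. Over all genes the shares in the 4 arms were 4.75% to 7.34% for rises and 4.74% to 7.48% for falls.

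The acute phase list rose in MET_KO_canertinib more than in the other arms. Of 26 genes 13 rose there and 5, 4 and 1 in the other arms. Its median was 0.98 after -0.37, 0.16 and -0.13, and 20 of 26 were above the range of the others, as were 28.8% of all genes. With quantile normalization 7 rose in MET_KO_canertinib, where 14 were above the range and the median was 0.58. The medians of the other arms became -0.04, 0.35 and -0.04, so the gap to MET_KO was smaller. Fgb, a fibrinogen chain, had signals of 45451 and 28777, 42946 and 23179, 85593 and 65916, and 36449 and 74029. It moved up in MET_KO_canertinib only, from the lowest day 0 level to a day 2 level near that of the other canertinib arm. Socs3, a brake on cytokine signalling, responded by -0.66, 0.91, -2.31 and 2.20, Il1rn, an interleukin-1 antagonist, by -0.85, 0.35, -0.14 and 1.99, and Cd14, a receptor for bacterial lipid, by -0.62, 0.47, 0.33 and 1.98.

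Members with the largest rises without the drug changed by less than 1 in MET_KO_canertinib. Saa1, serum amyloid A, had signals of 5524 and 30896, 1977 and 22070, 94050 and 85540, and 61208 and 83644. Both canertinib arms were already high at day 0, and the rise was in the arms without the drug. Saa2, a close paralog that probes may not tell apart, responded by 3.92, 4.14, 0.07 and 0.40, and Lcn2, an iron-scavenging defence protein, by 4.00, 5.14, -0.57 and 0.94. Between the 2 canertinib arms the acute phase list differed by a median of -0.71 at day 0 (MET_KO_canertinib minus MET_FLOX_canertinib) and 0.17 at day 2, so the arms differed more in their day 0 than in their day 2 arrays.

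Metallothioneins, which bind zinc and copper, differed between the canertinib arms on both days. Their promoters on the plus strand, Mt2 at chr8:94172368-94172667 and Mt1 at chr8:94178839-94179138, are shown because they hold 4 and 3 copies of the metal response element core, marked in capitals.
Mt2: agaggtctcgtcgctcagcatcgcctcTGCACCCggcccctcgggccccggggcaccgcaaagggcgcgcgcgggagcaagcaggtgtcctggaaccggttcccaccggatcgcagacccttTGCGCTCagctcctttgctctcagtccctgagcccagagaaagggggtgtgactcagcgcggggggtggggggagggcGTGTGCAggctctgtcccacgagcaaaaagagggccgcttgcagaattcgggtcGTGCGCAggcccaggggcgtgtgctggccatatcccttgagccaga
Mt1: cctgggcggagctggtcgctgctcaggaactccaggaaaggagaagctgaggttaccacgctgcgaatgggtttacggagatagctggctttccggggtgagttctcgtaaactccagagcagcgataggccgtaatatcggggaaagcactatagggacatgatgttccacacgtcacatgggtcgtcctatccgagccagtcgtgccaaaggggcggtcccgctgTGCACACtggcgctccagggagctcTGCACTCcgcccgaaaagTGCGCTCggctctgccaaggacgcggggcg
Mt1 had signals of 1740 and 841.2, 504.8 and 2688, 52356 and 6566, and 3285 and 29934, and Mt2 of 819.6 and 930.3, 846.7 and 2044, 47711 and 4462, and 2234 and 25798. Each canertinib arm thus had 1 array at a high level, day 0 in MET_FLOX_canertinib and day 2 in MET_KO_canertinib. At least 1 such core stood in 34.3% of all promoters and in 32.7% of those of the 104 matched genes that rose by 2 or more in MET_KO_canertinib. Igfbp1, a hepatocyte binding protein of insulin-like growth factors, had signals of 1155 and 3588, 3562 and 1691, 9265 and 874.5, and 543.4 and 19325. Its response of 5.11 in MET_KO_canertinib followed the lowest day 0 signal of the 8 arrays and reached the highest.

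Some neutrophil markers rose along with these genes. S100a9, a calcium-binding protein of neutrophils, had signals of 304.7 and 431.9, 312.6 and 325.6, 600.9 and 202.5, and 120.1 and 2044. S100a8, its partner, had 203.8 and 258.0, 188.4 and 364.6, 662.1 and 365.6, and 367.5 and 4349. Both stood highest on the day 2 array of MET_KO_canertinib. Of the 14 neutrophil markers 5 rose there and 1, 3 and 2 in the other arms, with medians of 0.60 after -0.06, -0.09 and -0.06, and the mean log2 level of the list was 9.87 on that array and 7.81 to 8.77 on the other 7. The defining markers Mpo (0.51), Csf3r (-0.35) and Mmp8 (0.18) did not rise. Of 11 lymphocyte markers 4 rose in MET_KO_canertinib and none in the others. Among the 4 was Ighm, the IgM heavy chain, at 3.09, whose other probe sets differed in sign in 1 of 5. Over all genes 4.75% rose in MET_KO_canertinib and 5.07%, 7.34% and 6.73% in the other arms. The part of these cell types in the acute phase response was not tested.

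Secreted hepatocyte proteins did not fall in MET_KO_canertinib as they did without the drug. The plasma protein list of 19 genes had medians of -0.54, -0.64, 0.05 and 0.31, complement and coagulation genes -0.49, -0.62, 0.18 and 0.25, and genes of the urea cycle and amino acid breakdown -0.24, -0.69, -0.04 and 0.20. Alb, the main plasma protein, had signals of 38769 and 27047, 32031 and 18701, 99691 and 110086, and 56977 and 97576. These values separate arms with canertinib from arms without it more than they separate MET_KO_canertinib from the rest. Arms with and without the drug also differ in the range of their array medians, and the 2 cannot be told apart. The hepatocyte markers had a median of -0.74 between the canertinib arms at day 0 and -0.10 at day 2. With quantile normalization, which acts most on the brightest genes, the plasma protein medians became -0.10, 0.07, 0.03 and 0.02, and the number above the range went from 13 to 2.

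NRF2 and glutathione genes, which detoxify reactive compounds, tended to lie below the other arms in MET_KO_canertinib. Of 25 genes 16 were below the range of the other arms, as were 22.4% of all genes, and 3 were above it. The medians were 0.08, 0.13, 0.01 and -0.30, though only 2 genes fell in MET_KO_canertinib. None of the 4 brightest members was below the range. Gstp1 (0.74) and Gstm1 (0.11) lay above it, and Gsta3 (-0.96) and Ephx1 (-0.14) within it. Ptgr1, which reduces reactive lipid aldehydes and ketones, had signals of 614.6 and 1081, 450.5 and 1996, 373.0 and 400.5, and 218.1 and 29.6. It was the lowest at both days in MET_KO_canertinib. Gsta4, a glutathione transferase for lipid aldehydes, gave 1.45, 1.35, 0.86 and -0.09, and Nqo1, a quinone reductase, -0.01, 0.91, 0.56 and -0.70.

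Among ligands, receptors and adaptors of MET and EGFR, 1, 2, 4 and 3 of 25 genes rose and 3, 2, 2 and 2 fell. Over all genes 4.75% rose and 4.74% fell in MET_KO_canertinib, and the shares of the other arms were 5.07% to 7.48%. Plau, the urokinase that can activate hepatocyte growth factor, fell in the other arms by 1.22, 2.15 and 2.36 and gave 2.02 in MET_KO_canertinib. St14, a membrane protease of the same activity, gave 1.67, 1.45, 2.07 and -0.41. Hbegf, a ligand of EGFR, gave 0.36 and -0.38 without canertinib and -2.30 and -1.56 with it, and Tgfa, another, 0.25 to 0.46 in all arms.

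Outside every list, single genes stood far from the other arms. Moxd1, a monooxygenase-like gene, had signals of 101.6 and 16.6, 118.1 and 23.5, 54.6 and 37.9, and 16.9 and 1630, the largest response of all genes in MET_KO_canertinib at 5.64. It read 2109 and 754.8 there at days 7 and 14, while the other arms read 32.1 to 70.3 at day 7. At day 14 it read 36.6 in MET_FLOX, 36.3 in MET_KO and 633.9 in MET_FLOX_canertinib. Klf14, a transcription factor, had 666.9 and 820.4, 743.6 and 403.8, 1240 and 1263, and 1393 and 72.1. Sfrp1, a secreted Wnt antagonist, gave -3.49 after -0.52, -0.19 and -0.52, though 1 of its 2 other probe sets differed in sign. For Nomo1 (3.14) and Rab3a (2.26) the other probe set of the gene gave the opposite sign. Nomo1 had 179.7 on the day 0 array of MET_KO_canertinib and 1210 to 2103 on the other 7, so its response is that of 1 low array.

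Levels between the 2 canertinib arms, whose arrays share a scale range, were compared on each day. Both sets were chosen partly by the change in MET_FLOX_canertinib, so these values describe them and test nothing. The 143 shared risers differed by a median of 0.13 at day 0 and -1.37 at day 2 (MET_KO_canertinib minus MET_FLOX_canertinib). By 1 or more, 27 were higher and 7 lower at day 0, and 0 were higher and 99 lower at day 2. The 48 shared fallers differed by -0.14 at day 0, where 2 were higher and 10 lower by 1 or more, and by 0.94 at day 2, where 23 were higher and 1 lower. Over all 13575 genes the median was 0 on both days, with 680 higher and 561 lower at day 0 and 740 higher and 703 lower at day 2.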

How the data were processed

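Total RNA of liver was measured on 16 arrays, 1 for each of 4 arms at 4 days, and the 8 arrays of days 0 and 2 enter the comparisons. Per the submitters' processing notes the authors made the deposited values with MAS5, and they are linear signal intensity. The sources used here do not give its version. A mean trimmed by 2% of probe sets at each end came to 500 on every array. Of 45101 probe sets, 64 controls, 932 with several genes and 9160 with none were left out, and 34945 had 1 gene. Values were turned into log2(signal + 16). A filter on low values asked for 4 or more of 16 arrays above their own median and left 22315 probe sets, of which the brightest per gene gave 13575 genes. No depth applies to arrays, and their number limits the precision.

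The test was limma 3.58.1 in R 4.3.3, with an intensity trend, on the 4 responses of each gene, MET_KO_canertinib against the other 3, two-sided with Benjamini-Hochberg adjustment. Its spread has 2 residual degrees of freedom before moderation, and holds the treatment differences among those arms. The test was tested on simulated data. All else is counts, medians and ranges, with Python 3.11.15 and pandas 2.3.3.

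The members, the 46 gene and marker lists and the tests were chosen with earlier results of these data known. Genes named by rule were the 16 lost rises and 10 lost falls with the widest gap, the 8 shared rises and 8 shared falls largest in their smallest arm, the 10 above and 10 below the range of the other arms with the widest gap, called genes (none), up to 4 brightest members of each list, Met, Egfr and the metallothioneins. Other genes were named after their values were seen. Alternatives covered the pseudocount, the filter, scaling, probe set choice, the fold, each other arm left out, all 16 arrays in the fit, and, chosen after seeing the data, day 7 as baseline.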

Additional observations from a re-analysis of the deposited data

Results flagged for a closer look

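Among named genes, 17 changed by 1 or more in MET_KO_canertinib in one direction while each of the other 3 arms changed in the other. Over all 13575 genes, 93 rose in MET_KO_canertinib while the other 3 arms were below 0, and 52 fell while they were above 0. The same counts were 51 and 86 for MET_FLOX, 80 and 52 for MET_KO, and 105 and 69 for MET_FLOX_canertinib. With 1 array for each arm and day the difference was not tested between livers, and limma called none of the 17. Of genes that climbed elsewhere, Spdl1 gave -1.19, Lsm2 -1.35, Nmrk1 -2.16, Ptgr1 -2.36 and Wdr36 -2.06 in MET_KO_canertinib. Ptgr1 stayed low there at days 7 and 14, with signals of 61.6 and 54.2, whereas Wdr36 read 524.8 and 860.5. For Ptgr1 the other arms read 264.7 to 673.7 at day 7 and 92.0 to 292.5 at day 14, so low day 14 signals were not limited to MET_KO_canertinib.

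Of genes that dropped elsewhere, Moxd1 gave 5.64, Crybb3, a crystallin, 3.56, Hsd3b5, a steroid enzyme, 3.30, Ighm 3.09, B3galt1, a galactosyltransferase, 3.07, Zdhhc14, a palmitoyltransferase, 2.33, Rab3a, a vesicle GTPase, 2.26, and Fgb, a fibrinogen chain, 1.02. The same held for Irs2, an adaptor of the insulin receptor (2.23), Plau, the urokinase (2.02), Saa3, an acute phase protein (1.20), and Fgg, a fibrinogen chain (1.01). Hsd3b5 was near background on the day 0 array of MET_KO_canertinib (16.5) and low again at days 7 and 14 (52.1 and 18.8), while its signal in MET_KO went from 12599 to 1072. Zdhhc14 read 1617 and 2867 at days 7 and 14 in MET_KO_canertinib, after 358.7 at day 0. The other probe set of Rab3a and of Nmrk1 gave the opposite sign.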

How the results depend on the processing

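No paired analysis was possible because each arm has 1 array per day and the labels give no replicate numbers that pair arrays. Main counts were 143 shared risers (115 not rising in MET_KO_canertinib), 48 shared fallers (28 not falling) and 1289 genes past 1 in MET_KO_canertinib. With a pseudocount of 64 the fallers were 30, and 16 did not fall. Without a filter they were 79 and 52, and 2495 genes passed 1. With day 7 as baseline 52 of 54 fallers did not fall and 104 of 113 risers did not rise. At a fold threshold of 0.5 the risers numbered 395, and at 2 they numbered 45. Leaving out 1 of the other arms, which loosens the rule, gave 188 to 291 risers (153 to 247 not rising) and 139 to 230 fallers (103 to 188 not falling). The share of risers missing in MET_KO_canertinib ranged from 70.4% to 92.0% over all settings, beside 80.4%.

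Limma's count of 0 became 0 to 6 when 1 other arm was left out. All 6, Igfbp1, Cyp8b1, Efna1, Mcm6, Mki67 and Cyp4a14, came without MET_FLOX, where the adjusted p was 0.0125 for Igfbp1 and 0.0492 to 0.0498 for the rest. With all 16 arrays 1 gene, Septin3, was called lower (adjusted p = 0.0484). Of 3069 values of single genes 2890 kept their size within 1 spread, 171 moved and 4 passed the threshold. Another 4 changed sign, counted only where the main difference was 1 or more in size. Those 4 were Trp53inp1 (-0.016) and Oasl2 (0.613) with all 16 arrays, and Gstp1 (-0.037) and Apoe (-0.029) with quantile normalization. The cause was not tested. Centring each array on its median moved the median of all genes from -0.149 to -0.002 in MET_FLOX and from -0.097 to 0.064 in MET_KO.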
